A study of Mus musculus with 8 samples.

Results

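The complement genes described here are 9 components and receptors of the complement system, taken by name from the 53715 genes of the table: the receptors C5ar1, C5ar2 and C3ar1, the central component C3, the 3 C1q chains C1qa, C1qb and C1qc, and the alternative pathway proteins Cfb and Cfp. Their transcripts were measured by RNA sequencing in mouse macrophages labelled Sting-/-, that is, deficient in the endogenous DNA-sensing adaptor STING (symbol Tmem173). Cells of all 4 groups, 2 libraries each, had been treated with CMA, an acridone compound that is a ligand of mouse STING, at 500 µg/ml over 4 h. The first group, called no_transgene here, carried no transgene and has MSCV2.2, a retroviral vector, in its titles. The mSTING group expressed mouse STING. The dCTT group (labelled mSTING-dCTT) expressed mouse STING without its C-terminal tail, and the zfCTT group (mSTING-zfCTT) expressed mouse STING with the zebrafish tail. The series title names the STING C-terminal tail as its subject. The transgenes were stably expressed. The sources used here do not give the promoter that drove them or say whether a line was 1 clone. Every library came from CMA-treated cells, so the values compare transgenes under stimulation and give no response to CMA itself.

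Complement is a set of proteins that tag microbes and dying cells and call in inflammatory cells. C1q, built of A, B and C chains, recognises antibody-coated or altered surfaces and starts the classical pathway, whereas factor B (Cfb) and properdin (Cfp) form and stabilise the alternative pathway convertase that cleaves C3. The fragments C3a and C5a signal through C3ar1 and the C5a receptors, and macrophages are a known source of C1q, properdin and these receptors outside the liver.

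The results below turn most on C5ar2 and C3, so the 250 bases upstream of a RefSeq start of each (build GRCm38.p6, minus strand) are shown. C5ar2 is from chr7:16244155-16244404 and C3 from chr17:57228137-57228386. Capitals mark matches to the C/EBP motif TTNNGCAA on either strand, where N is any base.
C5ar2: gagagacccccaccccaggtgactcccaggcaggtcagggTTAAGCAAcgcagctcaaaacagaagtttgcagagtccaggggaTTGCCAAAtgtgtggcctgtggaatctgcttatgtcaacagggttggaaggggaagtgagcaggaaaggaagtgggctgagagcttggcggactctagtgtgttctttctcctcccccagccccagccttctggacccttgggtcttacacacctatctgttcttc
C3: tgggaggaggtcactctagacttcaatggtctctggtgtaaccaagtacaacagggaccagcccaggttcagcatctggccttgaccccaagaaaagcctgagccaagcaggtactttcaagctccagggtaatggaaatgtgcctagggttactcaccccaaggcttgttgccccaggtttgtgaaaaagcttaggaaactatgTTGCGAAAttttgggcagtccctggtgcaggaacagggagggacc
The C5ar2 window shown held 2 such matches, 210 to 203 bases upstream of the start on the gene's strand and 166 to 159 bases upstream on the opposite strand, and the C3 window held 1, at 45 to 38 bases on the opposite strand. The table has another C5ar2 window, chr7:16242332-16242581, which lies inside the gene and held none. A match to this motif was present in 9.56% of 32851 RefSeq windows of the same length. Neither window matched the NF-κB consensus (7.25% of all windows), the interferon-stimulated response element (2.98%) or the gamma-activated site TTCNNNGAA (7.02%), each searched on both strands. RefSeq windows were matched for 7 of the 9 genes. In the GENCODE annotation of GRCm38 the whole genes span chr7:16234585-16244154 (C5ar2), chr7:16246743-16259540 (C5ar1), chr6:122847138-122856161 (C3ar1), chr17:57203970-57228136 (C3), chr17:34856374-34862518 (Cfb) and chrX:20925454-20931555 (Cfp), and the C1q genes span chr4:136880129-136898803, all 9 on the minus strand. These matches are descriptions of the letters and not of binding.

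Library depth, read from the steps of the deposited values, was 20.1 to 171 M reads, and the zfCTT libraries were among the shallowest, at 20.1 and 34.8 M. Tmem173 read 2.42 and 3.23 RPKM (reads per kilobase per M reads) without a transgene and 10.6 to 22.7 RPKM in the 6 libraries with one. Of 10 macrophage markers 9 passed the filter, and the summed level of all 10 was 836 to 1289 RPKM. It was 836 to 1050 RPKM in the mSTING and zfCTT libraries and 1061 to 1289 RPKM in the other 4. Its part in the results below was not tested. The single markers did not all follow this split. Lyz2 read at most 146 RPKM in the mSTING and zfCTT libraries and 167 to 486 RPKM in the other 4. Itgam and Mertk were also lower in mSTING and zfCTT without overlap. Spi1 was higher in them, at 222 to 291 RPKM against 142 to 220 RPKM, and the remaining markers overlapped. Summed markers of neutrophils, B cells, T cells, fibroblasts and hepatocytes did not exceed 0.178 RPKM in any library. On the first principal component (38.2% of the variance) zfCTT replicate 1 stood apart, and on the second (37.0%) no_transgene replicate 1 and dCTT replicate 1 did. The labels do not state whether a group's libraries are separate cultures. The p-values therefore reflect only library-to-library spread, which can be technical. In bulk RNA, fewer cells of a type and less RNA per cell cannot be told apart.

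All 9 complement genes were tested, among 13475 genes that reached an RPKM of 1 in 2 or more libraries. Cfb passed that filter only through the 2 zfCTT libraries, so in comparisons with zfCTT its difference is a description, and counts that hold it lean towards zfCTT. In zfCTT over no_transgene, 1 of the 9, C5ar2, passed an adjusted p of 0.05 (limma, Benjamini-Hochberg over all tested genes), and it fell. The background was 1.08% of all tested genes called in either direction and 0.156% called lower. Both zfCTT libraries lay above both no_transgene libraries for C3 and Cfb and below them for C5ar1, C5ar2, C1qa, C1qb, C1qc and Cfp, while C3ar1 overlapped. That is 8 of 9 genes without overlap, against 39.6% of all tested genes. The median log2 difference of the 9 was −1.06, and that of all tested genes was −0.042. At an unadjusted p below 0.05 stood 5 of the 9, Cfb among them, against 13.4% of tested genes. All differences are on the log2(RPKM + 1) scale, with the SE of the fit, and understate the change of genes with low values.

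**Figure D1:**
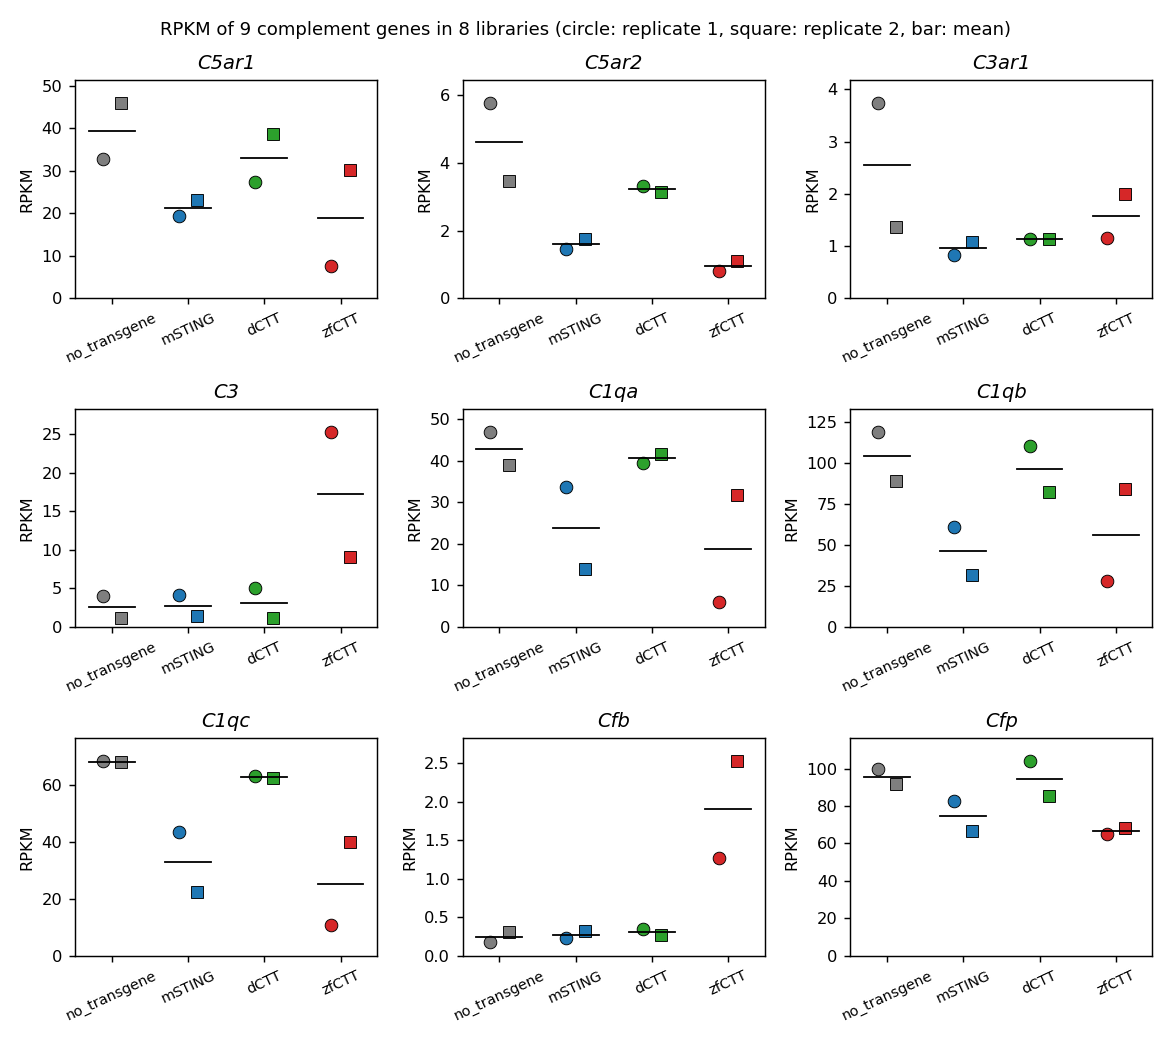
RPKM of each of the 9 complement genes in all 8 libraries, by group, on linear axes from 0; circles are replicate 1, squares replicate 2 and the bar their mean. The zfCTT libraries are the highest for C3 and Cfb and the lowest for C5ar2, and they lie far apart for C5ar1 and the C1q chains.

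C5ar2, a C5a receptor that does not couple to G proteins, was lowest with the zebrafish tail. It read 5.77 and 3.46 RPKM in no_transgene, 1.47 and 1.74 RPKM in mSTING, 3.30 and 3.13 RPKM in dCTT, and 0.812 and 1.10 RPKM in zfCTT. No pair of groups overlapped, and their order from high to low was no_transgene, dCTT, mSTING and zfCTT. The zfCTT values rested on 58 and 136 reads, with exact 95% Poisson intervals of 0.617 to 1.05 RPKM and 0.921 to 1.30 RPKM, which cover counting error only. C5ar2 fell from 4.62 ± 1.64 RPKM (SD, n = 2) in no_transgene to 0.955 ± 0.202 RPKM (SD, n = 2) in zfCTT, a log2 difference of −1.49 ± 0.23 (SE; limma adjusted p = 0.0454). The mean was 4.83-fold lower. The call was lost when any 1 of the 8 libraries was left out, with adjusted p of 0.0644 to 0.306 in limma, while the difference stayed between −1.80 and −1.19. C5ar2 also shares 127 of its 3561 exon bases with the gene model Gm26473 on the same strand, and Gm26473 read 7.67 RPKM in no_transgene replicate 1 and at most 1.01 RPKM in the other 7 libraries.

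C5ar1, the classical C5a receptor that drives chemotaxis, lies 2588 bases from C5ar2 on chromosome 7 and had a level 5.68 to 27.4 times as high. It read 32.8 and 45.9 RPKM in no_transgene, 19.3 and 23.0 RPKM in mSTING, 27.4 and 38.7 RPKM in dCTT, and 7.57 and 30.0 RPKM in zfCTT. The zfCTT libraries differed from each other 3.97-fold, and the higher one lay among the dCTT values. Only 5.39% of tested genes differed at least 3-fold between these libraries. The log2 difference of zfCTT over no_transgene was −1.29 ± 0.57 (SE; limma adjusted p = 0.394), and it was −0.36 without zfCTT replicate 1 and −2.22 without zfCTT replicate 2. C3ar1, the C3a receptor, was the lowest of the receptors in all 6 libraries outside zfCTT, at 3.74 and 1.35 RPKM in no_transgene, 0.820 and 1.08 RPKM in mSTING, 1.13 and 1.13 RPKM in dCTT, and 1.15 and 2.003 RPKM in zfCTT. Only no_transgene and zfCTT overlapped, though all libraries but no_transgene replicate 1 lay between 0.820 and 2.003 RPKM. Its difference in zfCTT over no_transgene was −0.40 ± 0.34 (SE; limma adjusted p = 0.672), and it was 0.11 without no_transgene replicate 1.

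C3, the component on which all activation routes converge, had its highest levels with the zebrafish tail. It read 4.00 and 1.13 RPKM in no_transgene, 4.10 and 1.43 RPKM in mSTING, 5.02 and 1.13 RPKM in dCTT, and 25.3 and 9.14 RPKM in zfCTT. Both zfCTT libraries lay above the other 6, whose groups overlapped one another throughout. The zfCTT mean was 17.2 ± 11.4 RPKM (SD, n = 2), 6.71 times the no_transgene mean of 2.56 ± 2.03 RPKM (SD, n = 2). Within each group the first library was 2.77 to 4.45 times the second, and this spread enters the error of the fit. The log2 difference was 2.32 ± 0.73 (SE) over no_transgene, which did not pass the test (limma adjusted p = 0.241). Over mSTING the log2 difference was 2.21 ± 0.73 (SE; limma adjusted p = 0.416), and over dCTT it was 2.19 ± 0.73 (SE; limma adjusted p = 0.284). These comparisons share the zfCTT libraries.

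Cfb, the protease of the alternative pathway convertase, was low except with the zebrafish tail. It read 0.179 and 0.315 RPKM in no_transgene (14 and 90 reads), 0.237 and 0.317 RPKM in mSTING, 0.343 and 0.275 RPKM in dCTT, and 1.27 and 2.53 RPKM in zfCTT (72 and 249 reads). Both zfCTT libraries lay above the other 6. Cfb could be tested only because these 2 libraries reached 1 RPKM, so the values that follow describe it and support no difference. The zfCTT mean was 7.71 times the no_transgene mean, with a log2 difference of 1.19 ± 0.23 (SE; limma adjusted p = 0.0798). It did not pass the test over mSTING either (1.15 ± 0.23, SE; limma adjusted p = 0.221), nor over dCTT (1.11 ± 0.23, SE; limma adjusted p = 0.0969). Cfb shares 2246 of its 2825 exon bases (79.5%) with Gm20547, a gene model on the same strand that also shares 1656 bases with C2, so its level is uncertain. Gm20547 read 0.129 to 0.249 RPKM outside zfCTT and 0.920 and 1.75 RPKM in zfCTT, so it too was highest there.

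C2, which holds the place of factor B in the classical pathway convertase and lies 85 bases from Cfb on chromosome 17, had similar values in all groups. It read 1.42 ± 0.11 RPKM (SD, n = 2) in no_transgene and 1.31 ± 0.01 RPKM (SD, n = 2) in zfCTT, a log2 difference of −0.069 ± 0.16 (SE; limma adjusted p = 0.895). In zfCTT, Cfb read 1.27 RPKM beside 1.30 RPKM for C2 in replicate 1 and 2.53 RPKM beside 1.32 RPKM in replicate 2, while in the other 6 libraries Cfb lay well below C2.

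**Figure D2:**
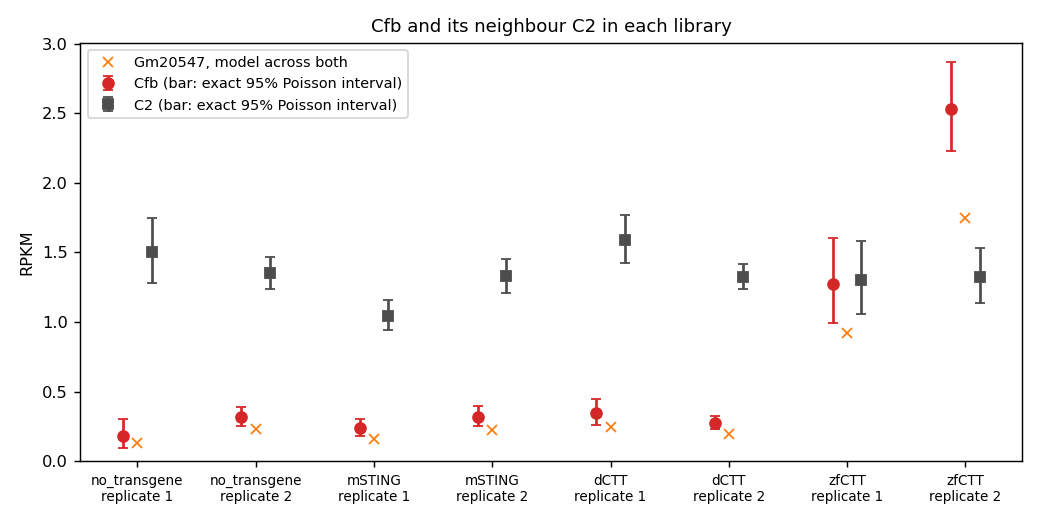
RPKM of Cfb, of its neighbour C2 and of Gm20547, the gene model that overlaps both, in each library; bars are exact 95% Poisson intervals of the reads, for counting error only. Cfb is at most 0.343 RPKM in 6 libraries and 1.27 and 2.53 RPKM in zfCTT, while C2 is between 1.05 and 1.59 RPKM in all 8.

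Cfp, or properdin, the stabiliser of the alternative pathway convertase, had the highest mean level of the 9 genes and the closest zfCTT libraries. It read 99.6 and 91.8 RPKM in no_transgene, 82.7 and 66.6 RPKM in mSTING, 104 and 85.1 RPKM in dCTT, and 64.9 and 68.4 RPKM in zfCTT. Both zfCTT libraries lay below all 4 libraries of no_transgene and dCTT, and they overlapped mSTING. The log2 difference of zfCTT over no_transgene was −0.51 ± 0.19 (SE; limma adjusted p = 0.330).

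The C1q chain genes lie within 18675 bases on chromosome 4, in the order C1qb, C1qc, C1qa, and kept 1 order of level. C1qb was above C1qc, and C1qc above C1qa, in all 8 libraries. C1qb read 119 and 89.1 RPKM in no_transgene, 60.9 and 32.0 RPKM in mSTING, 110.5 and 82.1 RPKM in dCTT, and 28.1 and 84.3 RPKM in zfCTT. C1qc read 68.4 and 67.9 RPKM in no_transgene, 43.5 and 22.5 RPKM in mSTING, 63.0 and 62.4 RPKM in dCTT, and 10.7 and 40.0 RPKM in zfCTT. C1qa read 47.0 and 39.0 RPKM in no_transgene, 33.7 and 14.0 RPKM in mSTING, 39.5 and 41.7 RPKM in dCTT, and 5.90 and 31.8 RPKM in zfCTT. All 3 chains were therefore lowest in zfCTT replicate 1, and next in mSTING replicate 2. The sum of the 3 ran from 44.7 RPKM in zfCTT replicate 1 to 234 RPKM in no_transgene replicate 1.

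The chains did not keep fixed proportions. C1qb over C1qa was 4.77 in zfCTT replicate 1 and 1.81 to 2.80 in the other 7 libraries, whereas C1qc over C1qa was 1.26 to 1.81 in all 8. The zfCTT libraries differed 5.39-fold for C1qa, 2.996-fold for C1qb and 3.75-fold for C1qc. None of the chains passed the test in zfCTT over no_transgene: the log2 difference was −1.54 ± 0.72 for C1qa (SE; limma adjusted p = 0.423). For C1qb it was −1.06 ± 0.54 (SE; limma adjusted p = 0.470), and for C1qc −1.66 ± 0.58 (SE; limma adjusted p = 0.295). Leaving out zfCTT replicate 1 brought these to −0.42, −0.28 and −0.75, so the size of each rested on that library.

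**Figure D3:**
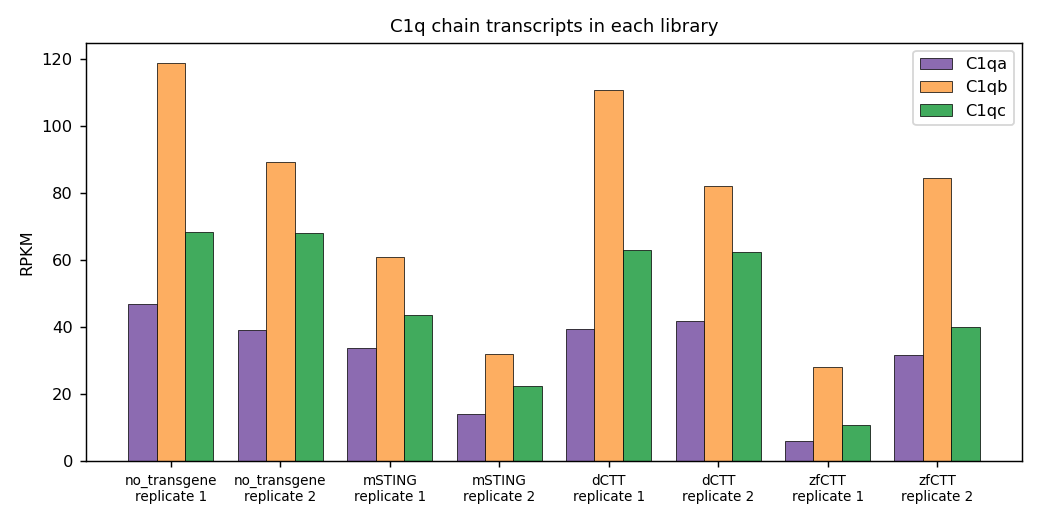
RPKM of C1qa, C1qb and C1qc in each of the 8 libraries, on a linear axis from 0. C1qb is the highest and C1qa the lowest chain in every library, and the sum runs from 234 RPKM in no_transgene replicate 1 to 44.7 RPKM in zfCTT replicate 1.

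Mouse STING with its own tail also had low values of several of these genes relative to cells without a transgene. In mSTING over no_transgene 0 of the 9 passed the test, as did 0 of all tested genes (background 0%), with limma adjusted p of 0.840 to 0.972 for the 9. Even Tmem173, the introduced gene, did not pass there (2.11 ± 0.38, SE; limma adjusted p = 0.684). Nor did it pass in zfCTT over no_transgene (2.25 ± 0.38, SE; limma adjusted p = 0.0539). At an unadjusted p below 0.05 stood 1 of the 9, C5ar2, and 467 of all tested genes (3.47%). Both mSTING libraries lay below both no_transgene libraries for 7 of 9 genes, against 17% of tested genes lower without overlap and 32.3% in either direction. C5ar2 differed by −1.08 ± 0.23, C1qb by −1.20 ± 0.54 and C5ar1 by −0.85 ± 0.57 on the log2 scale (SE), and C1qb by −0.75 without mSTING replicate 2. C3 and Cfb differed by 0.11 and 0.036, and their groups overlapped.

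Without the tail, mean levels of the C1q chains and Cfp were close to those of cells without a transgene. The C5ar2 mean was 1.43-fold lower and the C3ar1 mean 2.25-fold lower. In dCTT over no_transgene 0 of the 9 passed the limma test (background 0%), 0 stood at an unadjusted p below 0.05 and differences ran from −0.65 for C3ar1 to 0.13 for C3. Tmem173, at 2.36 ± 0.38 (SE), did not pass there either. Groups did not overlap for 3 of 9 genes (C5ar2, C3ar1 and C1qc, all lower), against 14.4% of tested genes in either direction and 6.69% lower. In dCTT over mSTING the differences of all 9 were above 0 and 7 did not overlap, against 29% of tested genes in either direction and 16.2% higher, with 0 called by limma (background 0%). At an unadjusted p below 0.05 stood 1, C5ar2 (0.70 ± 0.23, SE), against 2.49% of tested genes. The C1qb difference was 1.09 ± 0.54 and that of C1qc 0.98 ± 0.58 (SE), and without mSTING replicate 2 they were 0.64 and 0.52. Comparisons with a group in common share its libraries.

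Between the tails, zfCTT over mSTING had 0 of 9 called by limma (background 0.119%) and 4 without overlap, against 49.4% of tested genes. These were C3ar1, C3 and Cfb, higher, and C5ar2, lower (−0.41 ± 0.23, SE; limma adjusted p = 0.4996). At an unadjusted p below 0.05 stood C3, and Cfb, which was tested only through its zfCTT libraries, against 10.95% of tested genes. C1qb differed by 0.14 ± 0.54 (SE), with both mSTING libraries inside the range of the zfCTT libraries. In zfCTT over dCTT, 0 of 9 were called by limma (background 1.08%). At an unadjusted p below 0.05 stood 5, Cfb among them, against 12.7% of tested genes, and 7 did not overlap, against 44.8%. C5ar2 differed there by −1.11 ± 0.23 (SE; limma adjusted p = 0.0910).

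**Figure D4:**
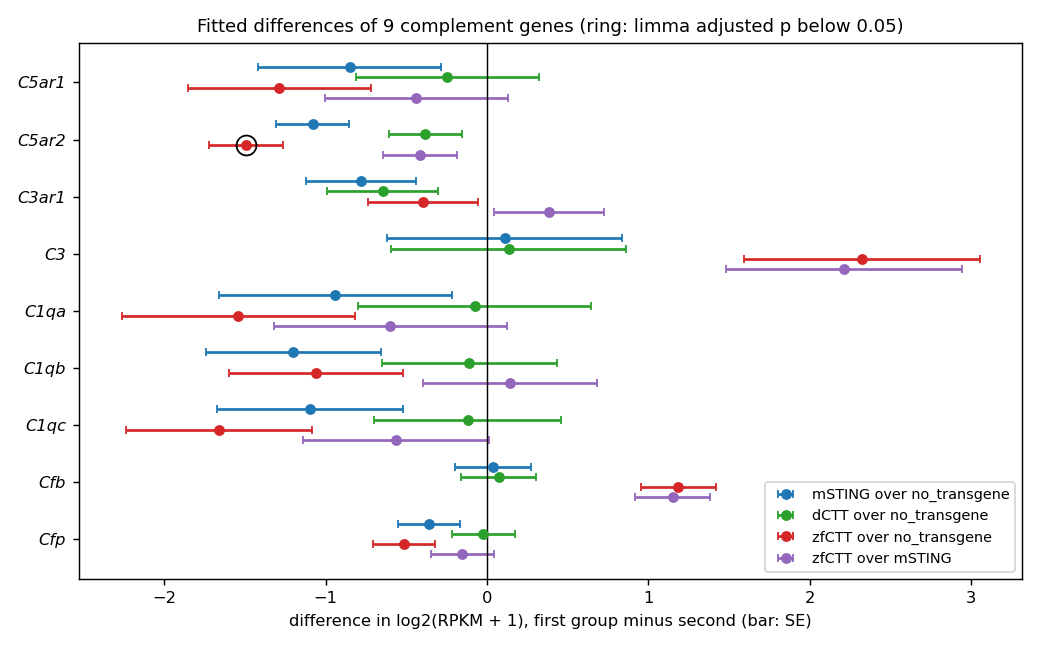
Fitted log2(RPKM + 1) differences of the 9 genes in 4 comparisons, with SE bars; the ring marks a limma adjusted p below 0.05. C3 and Cfb lie to the right in both comparisons with zfCTT, at 2.32 and 2.21 and at 1.19 and 1.15, and C5ar2 in zfCTT over no_transgene, at −1.49, carries the only ring.

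With both tailed proteins (mSTING and zfCTT) set against both groups without a tail (no_transgene and dCTT), C5ar2 fell. Its mean was 1.28 RPKM in the 4 tailed libraries and 3.92 RPKM in the 4 others, a log2 difference of −1.10 ± 0.16 (SE; limma adjusted p = 0.0427), and the groups did not overlap. It was 1 of 9 called, with 0.913% of tested genes called in either direction and 0.134% lower. Leaving out any 1 library ended this call as well, with limma adjusted p of 0.0554 to 0.210. C5ar2, C1qa, C1qc and Cfp, 4 of 9, were lower without overlap, against 3.57% of tested genes lower and 8.29% in either direction. C1qc differed by −1.32 ± 0.41 (SE; limma adjusted p = 0.275) and C1qa by −1.20 ± 0.51 (SE; limma adjusted p = 0.475), and without zfCTT replicate 1 by −0.87 and −0.64. C3, at 1.15 ± 0.52, and Cfb, at 0.58 ± 0.17 (SE), overlapped, with the mSTING libraries at the level of the groups without a tail.

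Of 41 other complement genes, 8 passed the filter, 26 were below it and 7 (C7, C8a, C8b, Mbl1, Mbl2, Fcnb and Cd55) were listed at 0 in all 8 libraries. None of the 8 passed the limma test in any of the 7 comparisons. In zfCTT over no_transgene 2 of the 8 differences were positive and 6 negative, with a median of −0.14 beside −0.042 for all tested genes. The 4 with the largest differences were Cd93, a surface protein once described as a C1q receptor, at −0.91 ± 0.38 (SE; limma adjusted p = 0.379), Itgam, the alpha chain of complement receptor CR3, at −0.85 ± 0.28 (SE; limma adjusted p = 0.276), the ficolin Fcna at −0.66 ± 0.52 (SE; limma adjusted p = 0.633), and Itgb2, the beta chain of CR3, at 0.28 ± 0.18 (SE; limma adjusted p = 0.559). The chains of CR3 thus had differences of opposite sign. Itgam read 16.6 and 9.04 RPKM in no_transgene and 5.97 and 6.78 RPKM in zfCTT. Hc, which encodes C5, did not exceed 0.0159 RPKM, and the proteases C1ra and C1rb reached 3.90 and 1.90 RPKM.

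The genes most like C5ar2 over the 8 libraries, by the root mean square distance of centred log2 values among 5461 genes whose mean RPKM was 5 or more, were Klhl6 (0.16), Tspan14 (0.17) and Tmem273 (0.17). Tspan14 read 10.9 and 9.45 RPKM in no_transgene, 4.06 and 5.59 RPKM in mSTING, 9.91 and 8.41 RPKM in dCTT, and 2.95 and 4.35 RPKM in zfCTT, so it had the same order of group means as C5ar2. Nearest to C3, which varied more over the libraries (root mean square 1.17 from its own mean, beside 0.61 for C5ar2 and 0.53 for Cfb), were Alpl (0.41), Birc3 (0.42) and Fcgr1 (0.48). Relative to that variation the nearest distance was 0.26 for C5ar2, 0.35 for C3 and 0.34 for Cfb. Alpl read 34.4 and 18.7 RPKM in zfCTT against 1.85 to 5.61 RPKM in the other 6 libraries. Nearest to Cfb were Tmem171 (0.18), Abcg1 (0.20) and Nfil3 (0.23). Since these distances are over the same 8 libraries, libraries that stand apart enter each of them.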

How the data were processed

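RNA of 8 libraries of CMA-treated Sting-/- mouse macrophages was measured, 2 per transgene label; groups come from that label and replicate numbers from the titles. The deposited values are RPKM, which the authors gave for 53715 genes. Per the submitters' processing notes, cutadapt 1.16 and HISAT2 2.1.0 were used, and GRCm38 and mm10 are named as builds without roles. How reads were counted, and on which annotation release and strand, is not given in the sources used here.

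Multiplied by the GENCODE exon length (GRCm38), 95.0% to 95.6% of nonzero values were whole reads within 0.05 of a read, which gave depths of 20.1 to 171 M reads. Tests on log2(RPKM + 1) used limma 3.58.1 (R 4.3.3) with an intensity trend, 1 fit of all 8 libraries (4 residual degrees of freedom), 7 comparisons, two-sided, and Benjamini-Hochberg adjustment at 0.05 over the 13475 genes that reached an RPKM of 1 in 2 or more libraries. In simulated data for zfCTT over no_transgene (13298 genes), changes were put only into genes averaging 5 RPKM or more. Recovery was 8% for a 2-fold change, 80% for 4-fold, 94% for 8-fold and 96% for 16-fold, and 5 unchanged genes were called. These rates do not extend to C5ar2, C3ar1 and Cfb, which averaged 2.60, 1.55 and 0.684 RPKM over the libraries. Noise was drawn independently for each library, whereas the deviations of same-numbered real libraries correlated at 0.032 to 0.76 between groups. The rates are averages over genes. They do not give the rate for C3, whose spread was wide (SE 0.73 in zfCTT over no_transgene).

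The genes named are the 9 members, Tmem173, the neighbour C2, every gene of the other 41 complement genes past the threshold or else the 4 with the largest difference, and the 3 nearest genes to C5ar2, C3 and Cfb. Genes named beyond these (Hc, C1ra, C1rb, the markers Lyz2, Mertk and Spi1, those listed at 0 and the overlapping gene models) were chosen after their values were seen. The members and lists were chosen with earlier results of these data known. Alternatives were other pseudocounts, filters and scalings, protein-coding genes only, voom on recovered reads, a replicate block, only the groups compared, and each library left out.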

Additional observations from a re-analysis of the deposited data

How the results depend on the processing

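With 2 libraries per group and at most 18 alternatives, of 1087 alternative values of the 63 gene differences 1021 kept direction and side of the threshold, 22 lost a call, 9 gained one and 35 changed sign, the latter in 15 small differences (at most 0.60 in size). The C5ar2 difference in zfCTT over no_transgene ran from −2.13 to −1.19, with limma adjusted p of 0.0125 to 0.371, and was called in 5 of 17 alternatives; in tailed over tailless it was called in 6 of 16. The cause was not tested for changes below unless fewer samples or genes make it. At zfCTT depths, low genes such as Cfb and C5ar2 rest on few reads.

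Members called in zfCTT over no_transgene, 1 in the report, became 0 with no filter on low values, with a mean RPKM of at least 5 (C5ar2, C3ar1 and Cfb then not tested), with voom on recovered reads, with only the 2 groups compared, and with no_transgene 1 and dCTT 1 both left out (chosen after seeing the data). With protein-coding genes only they became 2, C5ar2 and Cfb, the latter tested only through its zfCTT libraries. In tailed over tailless, 1 became 0 with no filter, with a mean of at least 5 and with both those libraries left out. In zfCTT over dCTT, 0 became 2 with protein-coding genes only (C5ar2 and Cfb) and 1 with voom (Cfb). There too Cfb was tested only through its zfCTT libraries. Leaving out each library gave 0 to 0 members called in both comparisons that had 1, while calls over all genes ran from 2 to 144 in zfCTT over no_transgene and from 2 to 142 in tailed over tailless; they were 143 and 144 in the former without an mSTING library, and 142 in the latter without mSTING replicate 2. Over all genes, calls in zfCTT over no_transgene were 146, and 34 with no filter, 354 with protein-coding genes only and 48 with voom; in tailed over tailless they were 123, and 40 and 320 with the first 2 of these. In the same order of settings they were 146, 28, 348 and 157 in zfCTT over dCTT and 16, 29, 63 and 8 in zfCTT over mSTING. With no filter and with protein-coding genes only, 0 became 12 and 6 in mSTING over no_transgene and 14 and 6 in dCTT over mSTING.

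With the replicate number as a replicate block, members called were 3 in zfCTT over no_transgene (C5ar2, C3 and Cfb, the last tested only through its zfCTT libraries), 2 in tailed over tailless (C5ar2 and C3), 1 in zfCTT over dCTT and 1 in zfCTT over mSTING (C3 in both). All genes called were 432, 322, 409 and 44 in these. The C3 difference over no_transgene was 2.32 ± 0.16 (SE; limma adjusted p = 0.00678) under the block, and its limma adjusted p was 0.0143 over mSTING and 0.00761 over dCTT. Same-numbered libraries share only a number: across 13475 genes their deviations correlated at 0.032 to 0.76 between groups, with 2 numbers per group, so the block is no established pairing.

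Differences that changed sign with no_transgene 1 and dCTT 1 both left out were, in dCTT over no_transgene, C1qa 0.10, C3 −0.0014 and Cfb −0.045; in dCTT over mSTING, C3 −0.73 and Cfb −0.0021; in zfCTT over no_transgene, C3ar1 0.11; and in mSTING over no_transgene, Cfb −0.043. C3 in dCTT over mSTING was −0.016 with a pseudocount of 0.1, −0.036 with median centring and −0.24 with voom, and Cfb there was −0.024 with median centring. Leaving out single libraries gave these ranges across 0. In dCTT over no_transgene they were −0.21 to 0.057 for C1qa, −0.32 to 0.10 for C1qb, −0.62 to 0.88 for C3, −0.0069 to 0.15 for Cfb and −0.17 to 0.12 for Cfp. In zfCTT over mSTING they were −1.72 to 0.53 for C1qa, −0.63 to 0.92 for C1qb, −1.47 to 0.34 for C1qc, −1.37 to 0.49 for C5ar1 and −0.31 to 0.00071 for Cfp. In dCTT over mSTING they were −0.73 to 0.77 for C3 and −0.0095 to 0.081 for Cfb. In mSTING over no_transgene they were −0.50 to 0.72 for C3 and −0.043 to 0.11 for Cfb, and in zfCTT over no_transgene −0.90 to 0.11 for C3ar1.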

Other observations

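Of the 9 genes, 1 was higher and 1 lower in the first library than in the second in every group. C3 was higher in replicate 1 than in replicate 2 in all 4 groups, by 3.53-fold in no_transgene, 2.86-fold in mSTING, 4.45-fold in dCTT and 2.77-fold in zfCTT, as were 14.3% of tested genes in direction. C5ar1 was lower in replicate 1 in all 4 groups, as were the ficolin Fcna and the receptor Cd93, against 17.3% of tested genes. Fcna read 1.39 and 3.09 RPKM in no_transgene, 0.438 and 1.77 RPKM in mSTING, 1.29 and 2.63 RPKM in dCTT, and 0.327 and 1.97 RPKM in zfCTT. Cd93 read 1.45 and 2.37 RPKM in no_transgene, 0.306 and 0.943 RPKM in mSTING, 0.974 and 2.18 RPKM in dCTT, and 0.149 and 1.04 RPKM in zfCTT. The labels do not say what a replicate number stands for.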
